A study of Homo sapiens with 6 samples.

Results

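The genes described here are 9 members of the PARP family (PARP1, PARP8, PARP9, PARP10, PARP11, PARP12, PARP14, PARP15 and ZC3HAV1) and DTX3L, the partner of PARP9. They were chosen by name, by matching Entrez identifiers to symbols, and all 10 were found among the 23459 rows of the count table. RNA was sequenced from Raji cells, a human Burkitt's lymphoma line of germinal centre origin. In the IRF4-overexpressing group (3 libraries) the cells carried a lentivirus with human IRF4 cDNA, and in the control group (3 libraries) an empty vector. Both groups were infected for 5 days and then kept for 7 days in puromycin at 3 µg/ml, so that each library comes from a drug-selected population. The comparison asks how raised IRF4, which drives plasma cell differentiation, changes expression in these lymphoma cells.

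PARP enzymes take ADP-ribose from NAD and attach it to proteins or nucleic acids. PARP1 builds long chains at DNA breaks, while most other members attach a single unit or, like PARP9 and ZC3HAV1, have lost much or all of that activity. Several members are induced by interferon in many cell types. Among these, PARP9 and the ubiquitin ligase DTX3L act as a pair, and ZC3HAV1 (the zinc finger antiviral protein, ZAP) binds viral RNA and directs its decay.

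The sequence in front of several of these genes is shown first, because PARP9 and DTX3L lie head to head and share it. Promoter windows of RefSeq (GRCh38.p14), 250 bases before to 50 after a gene's start, were found for 9 of the 10 genes, in 13 windows. PARP10 had no window and was not searched. They were searched on both strands for GAAA, any 2 bases and GAAA again, the core of the interferon-stimulated response element, and for GGAA, any 2 bases and GAAA, the composite ETS-IRF element to which IRF4 binds with PU.1 or SPIB. The 2 motifs can overlap, since the GAAA that ends the composite element can begin the response element. The 4 windows below hold both motifs in such an overlap. Each line gives bases 90 before to 10 after the start, 5′ to 3′ on the gene's own strand, and the capitals mark the overlapping pair.
PARP9 (chr3:122564291-122564390, minus strand): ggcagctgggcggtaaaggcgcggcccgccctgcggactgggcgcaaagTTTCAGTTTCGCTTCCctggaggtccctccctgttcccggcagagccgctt
DTX3L (chr3:122564248-122564347, plus strand): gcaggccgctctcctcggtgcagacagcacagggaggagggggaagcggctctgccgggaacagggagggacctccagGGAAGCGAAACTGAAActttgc
PARP14 (chr3:122680749-122680848, plus strand): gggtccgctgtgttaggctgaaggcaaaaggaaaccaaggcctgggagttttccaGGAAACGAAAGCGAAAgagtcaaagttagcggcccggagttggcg
PARP12 (chr7:140062942-140063041, minus strand): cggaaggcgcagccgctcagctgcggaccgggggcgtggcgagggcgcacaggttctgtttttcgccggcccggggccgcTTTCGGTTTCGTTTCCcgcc

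The capitals of PARP9 and DTX3L are the same 16 bases of the genome, chr3:122564326-122564341, read on opposite strands. They lie at positions -41 to -26 of PARP9 and at -12 to 4 of DTX3L, whose starts are 38 bases apart in these windows. A second annotated start of PARP9 lies 446 bases inside DTX3L, and its window holds neither motif. Reading the minus strand matches in the other direction gives GGAAGCGAAACTGAAA for PARP9 and DTX3L and GGAAACGAAACCGAAA for PARP12, beside GGAAACGAAAGCGAAA for PARP14. Of all 35116 windows in the table, 3.57% hold the response element, 2.82% the composite element and 0.094% an overlapping pair. The windows of PARP1, PARP8, PARP11, PARP15 and ZC3HAV1 hold neither motif, and none of the 13 windows holds ATGCAAAT, the octamer bound by the Oct factors, against 1.77% of all windows. TTC, any 3 bases and GAA, the letters of a STAT dimer site, is in a window of PARP14, PARP15 and ZC3HAV1 and in 7.66% of all windows. A match of letters is not evidence that a factor binds there.

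The introduced gene was raised in each library that should carry it. IRF4 (Entrez gene 3662) had 5162, 4462 and 6054 counts in IRF4-overexpressing replicates 1, 2 and 3, against 41, 37 and 50 in control replicates 1, 2 and 3. Libraries held 27681979 to 46210702 counts in all. Markers fixed for germinal centre B cells summed to 2923 to 3137 CPM (counts scaled to effective library size) in IRF4-overexpressing and 3026 to 3155 CPM in control libraries, and all 10 were detected well enough to test. Of the 10 T and NK cell markers 4 had no count in any library, and their sum was 0.497 to 0.594 CPM in IRF4-overexpressing and 0.223 to 0.438 CPM in control libraries. Of the 10 kidney and epithelial markers 7 were at 0, and the sum was 0.320 to 0.837 CPM in IRF4-overexpressing and 0.0996 to 0.274 CPM in control libraries. Myeloid markers summed to 5.62 to 9.01 CPM in IRF4-overexpressing and 2.81 to 3.20 CPM in control libraries, with 3 of 10 at 0, and ITGAM alone among them was called higher. The part of these cells or genes in the results below was not tested.

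The libraries also differ within groups along an axis that took up 74.3% of the spread of log2 CPM left within groups. IRF4-overexpressing replicates 2 and 3 lie on its first side with control replicate 1, and IRF4-overexpressing replicate 1 lies on its second side with control replicates 2 and 3. Scores on the first side were -22.28 and -19.41 for IRF4-overexpressing replicates 2 and 3 and -18.86 for control replicate 1. Those on the second side were 41.7 for IRF4-overexpressing replicate 1 and 6.04 and 12.82 for control replicates 2 and 3. IRF4-overexpressing replicate 1 thus lay farthest out. The sides were read from these counts and have no label. Log2 fold changes within each side are given beside the results as values with no test, since each rests on a group of 1 library and the sides were chosen for their likeness in the same counts.

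With IRF4 raised, 3 of the 10 genes rose: PARP9, PARP10 and PARP12. None passed the test for a fall. A gene was called changed at a Benjamini-Hochberg adjusted p under 0.05 in edgeR's quasi-likelihood test over all 12079 genes tested, among which all 10 were kept. Of all genes tested, 2.98% were called higher and 0.182% lower. Beside the count of 0 lower members stand 1 member lower at an unadjusted p under 0.05 (PARP1), 0 lower by DESeq2 and 0 by limma-voom. At an unadjusted p under 0.05, 1368 of all 12079 genes tested were higher and 988 lower. These numbers are the background for the unadjusted counts given here and for the related lists below. DESeq2 called 1.45% of all genes lower and limma-voom 0.182%. The median log2 fold change of the 10 genes was 0.09, against 0.007 for all genes tested. In bulk RNA, fewer cells with a transcript and less of it per cell cannot be told apart.

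**Figure D1:**
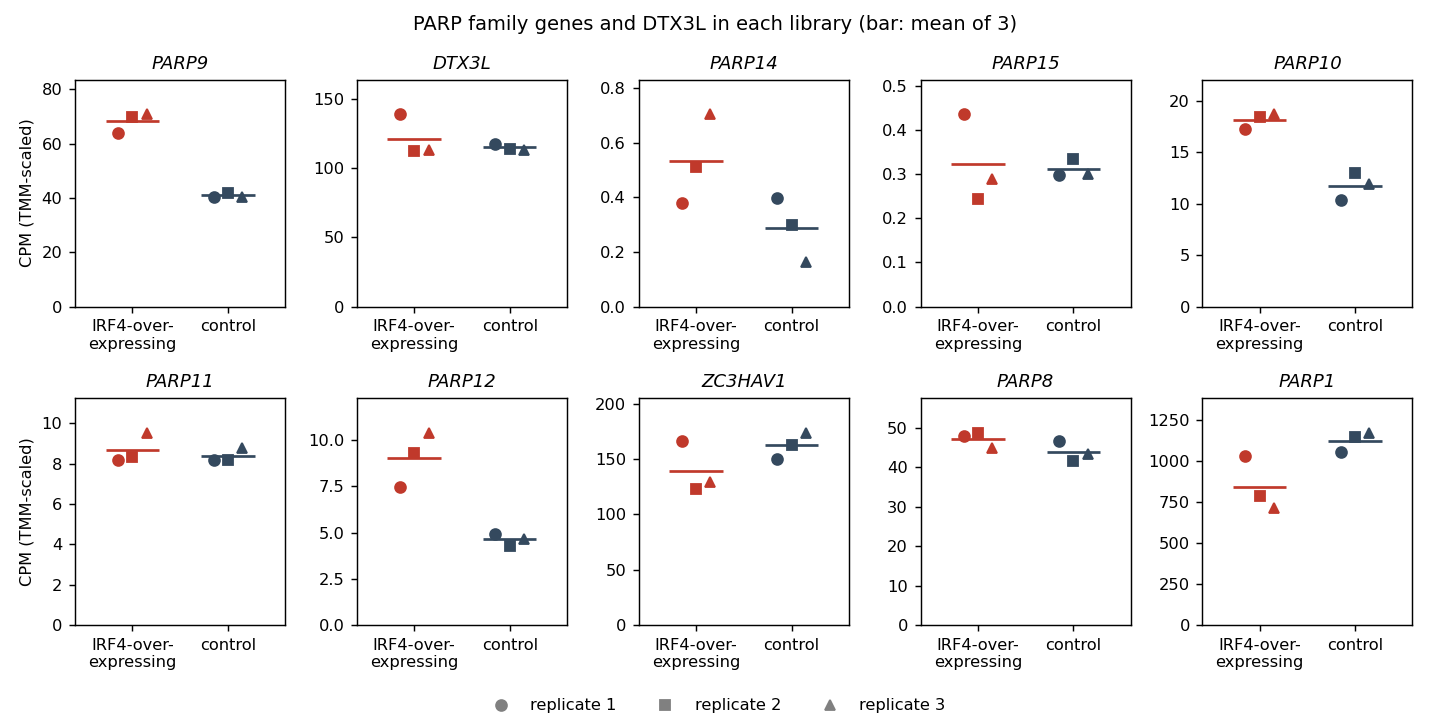
Expression of the 10 genes in each library in CPM (linear axes from 0, a scale per gene), with IRF4-overexpressing libraries in red on the left, control libraries in dark blue on the right, symbols for replicate numbers and a bar for the mean of 3. The IRF4-overexpressing libraries of PARP9, PARP10 and PARP12 lie above all control libraries, while those of DTX3L lie at 112 to 139 CPM around control libraries at 114 to 118 CPM.

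PARP9, which carries macrodomains that bind ADP-ribose and acts with DTX3L in interferon signalling and DNA repair, measured 64.0, 69.7 and 70.8 CPM across IRF4-overexpressing replicates 1, 2 and 3, against 40.5, 41.8 and 40.5 CPM in control replicates 1, 2 and 3. Every IRF4-overexpressing library exceeded every control library. The means were 68.2 ± 3.67 CPM and 40.9 ± 0.790 CPM (SD, n = 3 each), a 1.66-fold rise (log2 fold change 0.74, SE 0.08, edgeR adjusted p = 0.00643). It was 0.79 within the first side of the library axis and 0.67 within the second. Without control replicate 3 the value was 0.72 and no longer passed (edgeR adjusted p = 0.0657), and it passed without each of the other 5 libraries. The fit without control replicate 3 called 1.11% of all its genes higher, against 2.98% with all libraries kept.

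DTX3L, the Deltex-family ubiquitin ligase that partners PARP9, measured 139, 112 and 113 CPM across IRF4-overexpressing replicates 1, 2 and 3, against 118, 114 and 114 CPM in control replicates 1, 2 and 3. The groups overlap, and IRF4-overexpressing replicate 1 alone stands above the other 5 libraries. The log2 fold change was 0.08 (95% interval -0.18 to 0.34, edgeR adjusted p = 0.671). That interval covers changes of 0.880-fold to 1.26-fold. The value was -0.07 within the first side of the axis and 0.32 within the second, where the only IRF4-overexpressing library is replicate 1.

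The difference between these neighbours can be read inside each library, where scaling has no part. PARP9 had 0.460, 0.620 and 0.627 counts for each DTX3L count in IRF4-overexpressing replicates 1, 2 and 3, against 0.344, 0.367 and 0.356 in control replicates 1, 2 and 3. The groups do not overlap, and replicate 1 is the lowest of the IRF4-overexpressing libraries. The mean log2 ratio was -0.83 ± 0.253 in IRF4-overexpressing and -1.49 ± 0.0455 in control libraries (SD, n = 3 each), a difference of 0.66 or 1.58-fold. The two-sided exact permutation p was 0.1, the smallest that 3 against 3 libraries can give, and 0.2 when adjusted over the 2 ratios tested. Leaving out single libraries moved the difference between 0.59 and 0.81. Because the reference annotation has PARP9 and DTX3L overlap at their starts on opposite strands, and the strand setting of the counting is not known, some reads could have been counted for either gene.

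**Figure D2:**
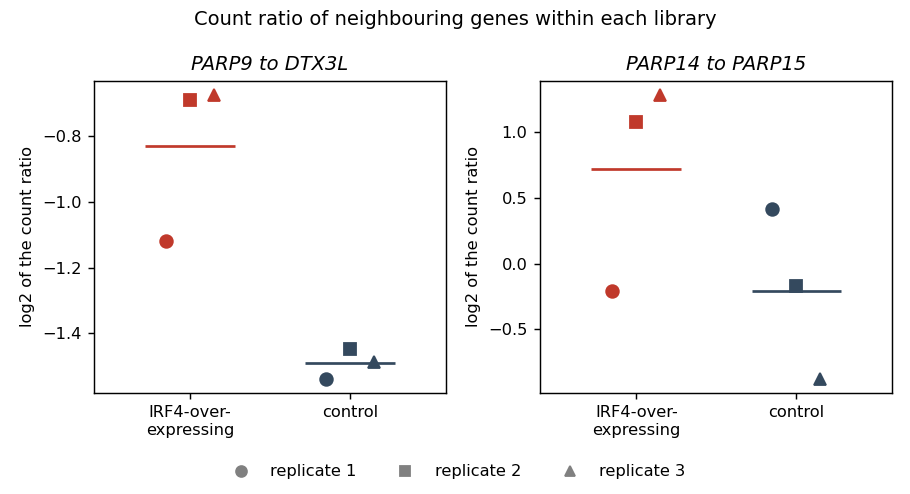
Log2 of the count ratio of neighbouring genes in each library, for PARP9 to DTX3L (left panel) and PARP14 to PARP15 (right panel), with IRF4-overexpressing libraries in red, control libraries in dark blue and a bar for the mean of 3. The PARP9 to DTX3L ratio is between -1.12 and -0.67 in IRF4-overexpressing libraries, above all control libraries, while the groups of the PARP14 to PARP15 ratio overlap.

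PARP14 and PARP15, macrodomain enzymes of the same stretch of chromosome 3, were close to silent. PARP14, which attaches single ADP-ribose units and is known as a coactivator of STAT6 in B cells, had 13, 19 and 34 counts in IRF4-overexpressing replicates 1, 2 and 3, against 16, 8 and 6 in control replicates 1, 2 and 3. These amount to 0.378, 0.513 and 0.704 CPM against 0.398, 0.298 and 0.164 CPM, and IRF4-overexpressing replicate 1 lies below control replicate 1. Its log2 fold change of 0.90 came with a wide interval (95%, -0.04 to 1.84) and did not pass (edgeR adjusted p = 0.268). Over the groups, 66 counts (exact Poisson 95% interval 51.0 to 84.0) stood against 30 (20.2 to 42.8), and these intervals cover counting error only. Without control replicate 3 the value was 0.60, and without control replicate 1 it was 1.25. It passed in none of the alternatives that kept it.

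PARP15 had 15, 9 and 14 counts in IRF4-overexpressing replicates 1, 2 and 3, against 12, 9 and 11 in control replicates 1, 2 and 3. The groups overlap, and the log2 fold change was 0.04 (95% interval -0.71 to 0.80, edgeR adjusted p = 0.949). A change of the size seen for PARP9 was therefore within the interval for PARP15. PARP14 had 0.867, 2.11 and 2.43 counts for each PARP15 count in IRF4-overexpressing replicates 1, 2 and 3, against 1.33, 0.889 and 0.545 in control replicates 1, 2 and 3 (two-sided exact permutation p = 0.3, and 0.3 adjusted over the 2 ratios). Thus these 4 genes of chromosome 3 gave a called rise (PARP9), an abundant transcript with no called change (DTX3L) and transcripts of few counts and wide intervals with no called change (PARP15 and PARP14).

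PARP12 and PARP10, which attach single ADP-ribose units, were the other members called higher. PARP12, whose CCCH zinc fingers are related to those of ZC3HAV1, measured 7.47, 9.29 and 10.4 CPM across IRF4-overexpressing replicates 1, 2 and 3, against 4.93, 4.28 and 4.68 CPM in control replicates 1, 2 and 3. The groups do not overlap, and the rise was 1.96-fold (log2 fold change 0.97, SE 0.15, edgeR adjusted p = 0.0216). It was 0.99 within the first side of the axis and 0.77 within the second.

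PARP10, which also has RNA recognition and ubiquitin-interacting motifs, measured 17.3, 18.4 and 18.7 CPM across IRF4-overexpressing replicates 1, 2 and 3, against 10.4, 13.0 and 11.9 CPM in control replicates 1, 2 and 3. These groups do not overlap either, and the rise was 1.54-fold (log2 fold change 0.63, SE 0.12, edgeR adjusted p = 0.0407). Within the sides of the axis the values were 0.83 and 0.51. In the reference annotation GRINA lies inside the span of PARP10. GRINA had a log2 fold change of -0.04 and was not called (edgeR adjusted p = 0.912).

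PARP10 and PARP12 each lost the call when any of 5 libraries was left out. Without control replicates 1, 2 and 3 the edgeR adjusted p was 0.0802, 0.102 and 0.107 for PARP12, and 0.114, 0.093 and 0.188 for PARP10. Without IRF4-overexpressing replicates 2 and 3 it was 0.0747 and 0.0697 for PARP12, and 0.145 and 0.163 for PARP10. Both passed without IRF4-overexpressing replicate 1 (edgeR adjusted p = 3.59e-04 and 0.0027). That fit called 19.9% of all its genes higher and 25.1% lower, and in it both IRF4-overexpressing libraries lie on the first side of the axis with 1 of the 3 control libraries. The log2 fold changes in these fits were 0.86 to 1.07 for PARP12 and 0.53 to 0.70 for PARP10. With no filter on low counts PARP10 had an edgeR adjusted p of 0.0501.

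**Figure D3:**
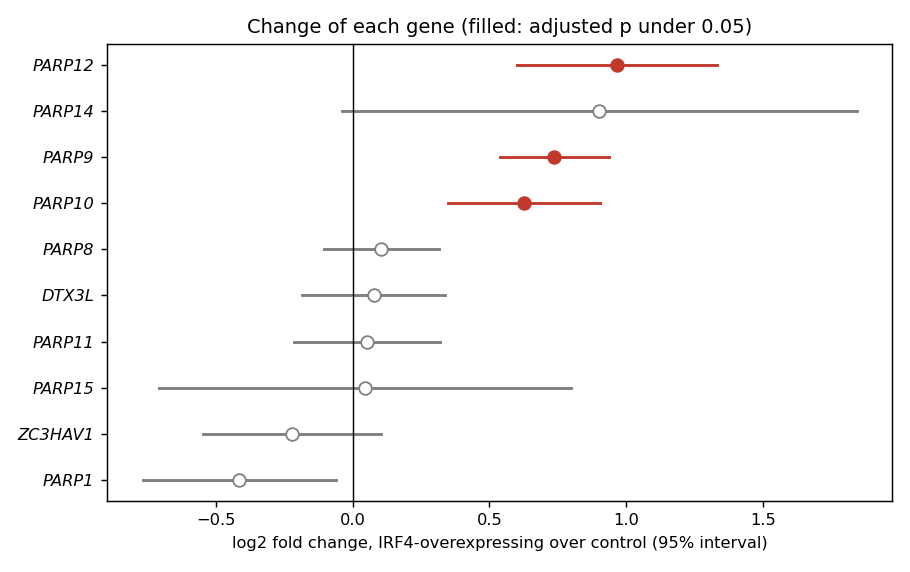
Log2 fold change of each gene, IRF4-overexpressing over control, with its 95% interval from edgeR's quasi-likelihood fit over 3 libraries a group; filled red points had an adjusted p under 0.05. PARP12, PARP9 and PARP10 lie at 0.97, 0.74 and 0.63, and the interval of PARP14 runs from -0.04 to 1.84.

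ZC3HAV1, the antiviral zinc finger protein, was abundant and did not pass the test. It measured 166, 122.7 and 129.5 CPM across IRF4-overexpressing replicates 1, 2 and 3, against 150, 163 and 174 CPM in control replicates 1, 2 and 3. The groups overlap because IRF4-overexpressing replicate 1 lies among the control libraries. The log2 fold change was -0.22 (95% interval -0.55 to 0.10, edgeR adjusted p = 0.371), and values were -0.26 and 0.02 within the first and second side of the axis. Without IRF4-overexpressing replicate 1 it was -0.38 and passed (edgeR adjusted p = 0.0079), in the fit that called 25.1% of all genes lower.

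PARP1, the DNA-break sensor and by far the most abundant member, measured 1033, 785 and 715 CPM across IRF4-overexpressing replicates 1, 2 and 3, against 1054, 1148 and 1172 CPM in control replicates 1, 2 and 3. All IRF4-overexpressing libraries lie below all control libraries, replicate 1 by a small margin. The log2 fold change of -0.41 (SE 0.15, unadjusted p = 0.0273) did not pass over all genes (edgeR adjusted p = 0.203). It was -0.50 within the first side of the axis and -0.13 within the second. Without IRF4-overexpressing replicate 1 it was -0.60 and passed (edgeR adjusted p = 9.09e-04), again in the fit that called 25.1% of all genes lower.

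PARP8 and PARP11 attach single ADP-ribose units. PARP8 measured 47.9, 48.7 and 44.9 CPM across IRF4-overexpressing replicates 1, 2 and 3, against 46.6, 41.5 and 43.3 CPM in control replicates 1, 2 and 3, and PARP11 measured 8.20, 8.32 and 9.53 CPM against 8.17, 8.18 and 8.78 CPM. Both overlap between groups. Their log2 fold changes were 0.11 (95% interval -0.10 to 0.32) and 0.05 (95% interval -0.21 to 0.32), with edgeR adjusted p of 0.481 and 0.784. For both, a rise as large as that fitted for PARP9 was outside the interval. Counted over the 10 genes, 3 lay higher without overlap between groups (PARP9, PARP10 and PARP12) and 1 lower (PARP1), against 13.5% higher and 11.9% lower without overlap among all genes tested.

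Levels of different genes were compared per length, as CPM per kilobase of the deposited gene width (RPKM). In IRF4-overexpressing libraries the order of mean RPKM (± SD, n = 3 libraries) was PARP1 (212 ± 41.9), DTX3L (21.1 ± 2.63), ZC3HAV1 (17.4 ± 2.92), PARP9 (8.55 ± 0.461), PARP8 (6.42 ± 0.278), PARP10 (4.97 ± 0.205), PARP12 (2.39 ± 0.390), PARP11 (1.84 ± 0.156), PARP15 (0.108) and PARP14 (0.0530). In control libraries it was PARP1 (282 ± 15.6), ZC3HAV1 (20.2 ± 1.48), DTX3L (19.96 ± 0.389), PARP8 (5.96 ± 0.353), PARP9 (5.13 ± 0.0991), PARP10 (3.23 ± 0.362), PARP11 (1.77 ± 0.0740), PARP12 (1.22 ± 0.0867), PARP15 (0.104) and PARP14 (0.0286). DTX3L and ZC3HAV1 overlapped between libraries in both groups, and PARP12 and PARP11 in the IRF4-overexpressing group, while the other neighbours in these orders did not. PARP9 thus lay above PARP8 in IRF4-overexpressing libraries and below it in control libraries. DTX3L RNA exceeded PARP9 RNA per length in both groups.

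Among 9492 other genes whose mean reached 5 CPM, the nearest to PARP9 in profile over the 6 libraries were TAP1, DUSP22, PIM2, BBC3 and PAM, at Euclidean distances of 0.0763 to 0.120 between centred log2(CPM + 0.5) profiles. TAP1 encodes a peptide transporter subunit for antigen presentation. PARP10 ranked 46th in distance to PARP9 (0.244), PARP12 111th (0.337) and DTX3L 3564th (0.882). The genes nearest to DTX3L were SECISBP2L, AHI1, EPM2AIP1, MYO1D and SLC45A4, at 0.0712 to 0.110. Nearest to PARP14 were ZNG1C, C4orf33, THAP9-AS1, CLK4 and ZDHHC12-DT, at 0.144 to 0.174, but the added 0.5 exceeds most of PARP14's own values and flattens its profile. Distances over 6 libraries are a description, and the group contrast and the library axis both enter them.

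Genes around the family showed few calls outside interferon signalling. Of the 8 other PARP genes tested 0 were called in either direction by edgeR, with a median log2 fold change of -0.22, and 1 was higher and 2 lower at an unadjusted p under 0.05. PARP3, which acts at DNA breaks, had 0.42 (edgeR adjusted p = 0.0846) and the tankyrase gene TNKS had -0.39 (edgeR adjusted p = 0.111). Of the 4 other Deltex ligase genes 0 were called either. DTX3 had 0.46 (edgeR adjusted p = 0.0817) and DTX4 had -0.41 (edgeR adjusted p = 0.233), the 1 gene higher and the 1 lower at an unadjusted p under 0.05.

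Among 7 tested genes that remove, read or direct ADP-ribose, 1 rose. ADPRH, the hydrolase that takes ADP-ribose off arginine, had 210, 204 and 269 counts in IRF4-overexpressing replicates 1, 2 and 3, against 129, 69 and 76 in control replicates 1, 2 and 3. Its mean was 5.73 ± 0.327 CPM in IRF4-overexpressing and 2.62 ± 0.568 CPM in control libraries (SD, n = 3 each), with no overlap and a 2.18-fold rise (log2 fold change 1.12, SE 0.18, edgeR adjusted p = 0.021). It kept its call without control replicate 1 or IRF4-overexpressing replicate 1, and lost it without any of the other 4 libraries (edgeR adjusted p up to 0.127). The other 6 of this group had log2 fold changes between -0.105 and 0.34 and did not pass, and the median of all 7 was 0.03.

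The remaining groups with no member called were 10 tested cofactors of ZC3HAV1 and RNA decay factors (median log2 fold change -0.02), 7 genes of single-strand break repair (0.06) and 10 genes of NAD supply and use (0.17). In them 0, 1 and 2 genes were higher and 0, 0 and 1 lower at an unadjusted p under 0.05. TRIM25, the ubiquitin ligase that ZC3HAV1 needs, had -0.64 (95% interval -1.57 to 0.29), and the exoribonuclease gene XRN1 had 0.18. APLF, which binds ADP-ribose chains at breaks, and the ligase gene LIG3 had 0.56 and -0.20 (edgeR adjusted p = 0.0848 and 0.257). CD38 and NADSYN1, which consume and make NAD, had 0.32 and 0.34 (edgeR adjusted p = 0.131 and 0.134).

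In interferon signalling, 3 of 7 tested genes rose and 0 fell. STAT2 and IRF9, which encode transcription factors activated by interferon receptors, had log2 fold changes of 1.01 and 1.47, and IRF7, which encodes an inducer of type I interferon genes, had 2.00 (edgeR adjusted p = 0.00365, 8.94e-04 and 0.00203). The rest of the list, IFNAR1, IFNAR2, JAK1 and TYK2, the receptor chains and their kinases, did not pass, at -0.23, -0.39, 0.16 and 0.33. The fitted changes of PARP9, PARP10 and PARP12 were below those of STAT2, IRF9 and IRF7, a difference that was not tested. These lists were written with earlier results of the same libraries known, so their counts are not independent evidence.

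**Figure D4:**
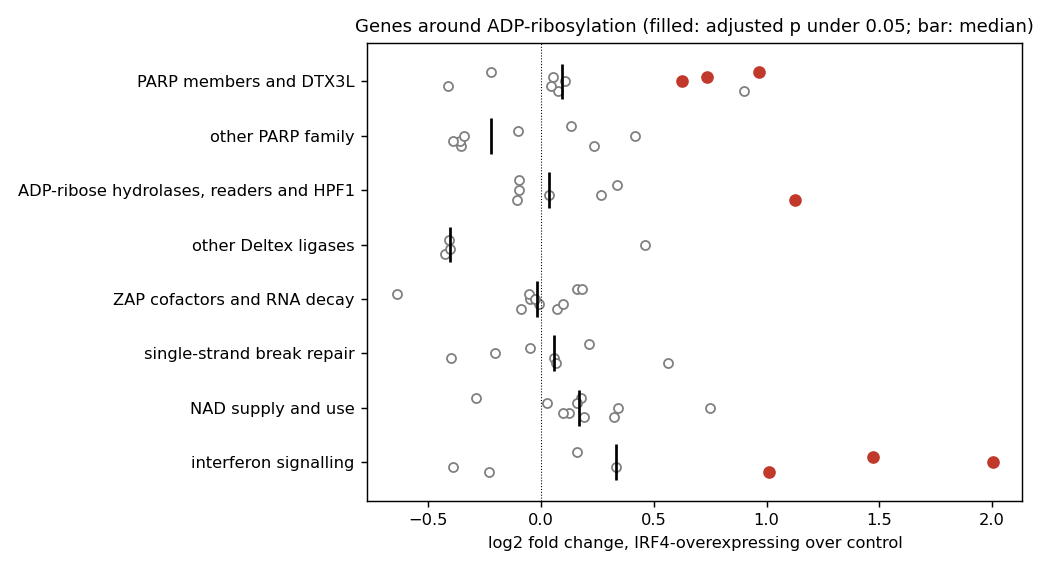
Log2 fold change, IRF4-overexpressing over control, of each tested gene of the PARP members with DTX3L and of 7 related groups; filled red points had an adjusted p under 0.05 and the black bar is the group's median. Calls are found in 3 of the 8 rows, with 3 among the PARP members, 1 (ADPRH) among ADP-ribose hydrolases and readers, and 3 in interferon signalling.

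**Figure D5:**
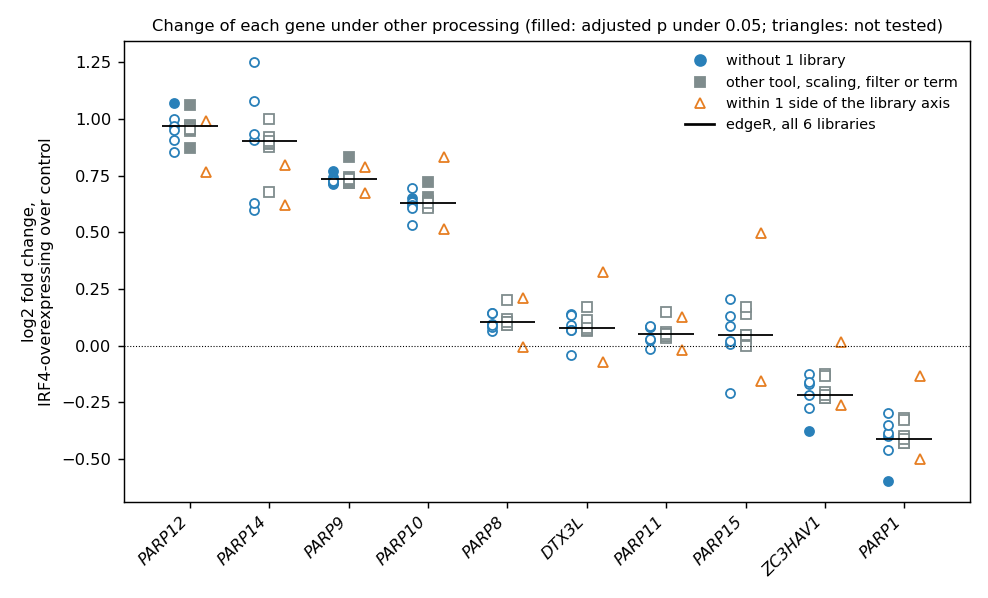
Log2 fold change of each gene under other processing: without 1 library (blue circles), with another tool, scaling, filter or model term (grey squares) and within 1 side of the library axis (orange triangles), with a line for the fit to all 6 libraries and filled symbols for an adjusted p under 0.05 (triangles are values with no test and are always open). PARP9 stays between 0.67 and 0.83 throughout, while PARP14 runs from 0.60 to 1.25 with open symbols only.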

How the data were processed

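Poly(A)-selected, stranded libraries were sequenced, per the labels' protocols. The authors deposited raw counts per gene, 1 column per library, whose nature follows from whole values and unequal totals, with 1 further deposited column of other values, the gene width in bases. Per the submitters' processing notes the builds were mm9 and hg19, of which hg19 is human; aligner, counter, annotation and strand setting are not given in the sources used here. Columns of the control libraries bear the name WT. Identifiers were matched to symbols of RefSeq for GRCh38.p14 (23308 of 23459), and no coordinates are given except those of RefSeq promoter windows.

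Differences were tested in R 4.3.3 with edgeR 4.0.16, using filterByExpr, TMM scaling, group as the only term and its quasi-likelihood test (two-sided), with Benjamini-Hochberg adjustment over 12079 genes and 0.05 as threshold. SE is the absolute log2 fold change divided by the square root of F. Alternatives used DESeq2 1.42.0, limma-voom (limma 3.58.1), other scalings and filters, a replicate block, a term for the library axis, and each library left out. Fits within sides of the axis were added after seeing the data. Ratios were tested with scipy 1.17.1, and figures drawn with matplotlib 3.10.9.

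Named genes were all 10 members and IRF4, the called genes of each related list or otherwise the 2 with the smallest p, and the 5 nearest profiles of PARP9, DTX3L and PARP14; GRINA, ITGAM, the rest of the interferon signalling list and the motifs were chosen after their values were seen. The members and lists were chosen with earlier results of these data known, and 1 gene taken off the interferon signalling list is not reported here. Nothing says whether replicates were separate cultures, so p-values measure the spread between libraries, which may be technical. Libraries of a group differed beyond sampling noise (chi-square per gene 6.75 to 200.2), and each library was counted once. Pairs that hold IRF4-overexpressing replicate 1 gave 183.2 and 200.2, and the other pairs 6.75 to 56.4.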

Additional observations from a re-analysis of the deposited data

How the results depend on the processing

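Members called higher numbered 3 with median-ratio size factors, library sizes alone, at least 1 CPM in 3 libraries, DESeq2, limma-voom, the library-axis term and IRF4 left out of the counts, 2 with no filter (PARP10 at a log2 fold change of 0.61), and 0 to 3 without single libraries. The library-axis term was read from these same counts, so its p-values can be too small. Its fit called 5.87% of all genes higher. Members called lower numbered 0 under all of these settings except without IRF4-overexpressing replicate 1. That fit called 2 members lower, and 25.1% of all genes. The other fits named so far called 0.0244% to 3.22% of all genes lower. Within the first side of the axis PARP1 was at -0.50 and ZC3HAV1 at -0.26, as values with no test. Without single other libraries 0 members were lower. DTX3L was 0.32 within the second side. Without single libraries the ranges were -0.60 to -0.30 for PARP1, 0.71 to 0.77 for PARP9, 0.53 to 0.70 for PARP10, -0.016 to 0.087 for PARP11, 0.86 to 1.07 for PARP12, -0.21 to 0.20 for PARP15, -0.041 to 0.14 for DTX3L and -0.38 to -0.12 for ZC3HAV1. Within the first side, signs differed from those over all 6 libraries for PARP8 (-0.0056), PARP15 (-0.16) and DTX3L (-0.0715). They also differed for PARP11 (-0.018) and ZC3HAV1 (0.015) within the second side. With limma-voom PARP15 was at -0.0027 and did not pass. The cause of these differences was not tested. Library sizes alone moved the median of all genes to 0.10 and PARP9, PARP10 and PARP12 to 0.83, 0.72 and 1.06. PARP14 and PARP15 did not reach 1 CPM and have no value under that filter.

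Whether the replicate numbers pair the libraries is not known. Deviations of same-numbered libraries from their group means correlated at -0.65, -0.22 and -0.47, and 0 of 6 libraries correlated best with their own number. These deviations are centred within groups of 3 and follow mostly the library axis, so they cannot decide whether same-numbered libraries shared a culture or batch. With the replicate block 3 genes in all were called and 0 members, at 0.73 for PARP9, 0.63 for PARP10 and 0.96 for PARP12; the PARP9 to DTX3L difference was 0.66 (paired exact permutation p = 0.25, the smallest 3 pairs allow). Depth limits PARP14 and PARP15 most, at 6 to 34 counts per library.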

Other observations

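The overlapping pair of motifs seen in front of PARP9, DTX3L, PARP12 and PARP14 was looked up in all other promoter windows after these values were seen. It is held by windows of 33 genes, of which 17 were tested. Among the 13 tested genes that are not members, 2 were called higher and 0 lower by edgeR: IFIT3, an interferon-induced gene whose product helps bind foreign RNA (log2 fold change 3.25, adjusted p = 5.38e-04), and TMEM140 (1.75, adjusted p = 0.0032). The shares over all genes tested were 2.98% higher and 0.182% lower. The other 11 of the 13 were not called, at log2 fold changes between -0.61 (FIZ1) and 0.37 (PSMB8-AS1). Nothing was tested about the motif itself.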
